A study of Mus musculus with 4 samples.

Results

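The adherens and tight junction genes described here are the 10 gene symbols Cdh1, Cdh3, Ctnna1, Ctnnd1, Cldn1, Cldn4, Cldn7, Ocln, Tjp1 and F11r, found by symbol in the expression tables, 10 of 24346 symbols listed. All 10 symbols were present in each of the 4 libraries. Hair follicle stem cells (HFSCs) were CD49f+CD34+ cells sorted from dorsal skin of C3H/HeN mice aged 4 weeks, and no genetic change or drug treatment was named. The cells were grown in the serum-free keratinocyte medium M-CnT for 10 passages (10p-HFSCs) or 48 passages (48p-HFSCs), with 2 RNA-seq libraries in each group. The comparison asked how gene expression in these cells differed between early and late passage. The sources used here do not say that libraries of a group came from separate cultures, so p-values measure only the spread between these libraries.

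Adherens junctions hold neighbouring epithelial cells together through classical cadherins, whose tails bind catenins that connect them to actin. Tight junctions seal the space between cells near the apical side, where claudins form the strands and scaffold proteins anchor them. In epidermis and hair follicle, E-cadherin and P-cadherin are the main classical cadherins, and the tight junction barrier lies in the upper living layers of the epidermis.

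Expression was given as FPKM, in which reads are by definition scaled to transcript length and to the mapped reads of the library. It is a level per length of transcript that can be compared between genes. In 10p-HFSCs the highest of the 10 genes were Ctnna1, Ctnnd1 and Cdh1, whose ranges over the libraries overlapped. F11r, Cldn4 and Cdh3 came next, again with overlapping ranges and with F11r just reaching the range of Ctnnd1, and Tjp1 and Ocln were lower. In 48p-HFSCs Cldn4 was above the other 9 in both libraries, followed by F11r, Ctnna1 and Cdh1 with overlapping ranges, and then by Ctnnd1, Cdh3, Tjp1 and Ocln without overlap. Cldn1 and Cldn7 were at or near 0 in all 4 libraries.

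**Figure D1:**
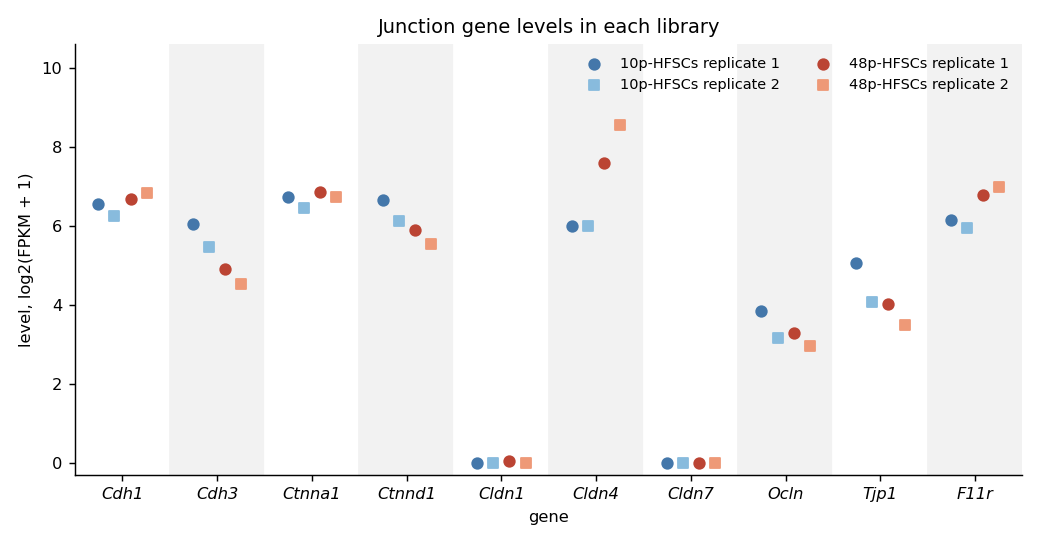
FPKM of the 10 junction genes on a log2(FPKM + 1) axis, with one point per library. Cdh1, Cldn4 and F11r are higher in both 48p-HFSC libraries, Cdh3, Ctnnd1 and Tjp1 are lower in both, and Cldn1 and Cldn7 lie at the bottom of the axis.

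Of the 10 genes, 8 reached an FPKM of 1 in at least 2 libraries and entered the comparison, which used limma on log2(FPKM + 1) with Benjamini-Hochberg adjustment over 11018 genes. A gene was called at an adjusted p under 0.05 and a log2 difference of at least 1, and differences on this scale understate the change of low genes. Only Cldn4 was called. The 1 call of 8 in the direction of 48p-HFSCs stood beside 10.8% of all genes tested, and the 0 calls in the other direction stood beside 9.15%, or 19.9% in either direction. At an unadjusted p under 0.05 there were 3 genes, of which Cldn4 and F11r were higher in 48p-HFSCs and Cdh3 was lower. For 3 of the 8 genes the late passage libraries were both above the early ones, and for 3 both below, against 31.7% and 34.3% of all genes tested. The median difference of the 8 genes was −0.09, and that of all genes tested was −0.03. RNA was taken from whole cultures, in which fewer cells of a type and less RNA per cell cannot be told apart.

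Cdh1 encodes E-cadherin, the main adhesion receptor of epithelial adherens junctions. Its FPKM was 93.1 and 75.2 in 10p-HFSCs, as compared to 102 and 113 in 48p-HFSCs. Both late passage libraries were above both early ones by a small margin, with group means of 84.1 ± 12.7 and 107.6 ± 8.24 (SD, n = 2 each). The log2 difference of 0.36 (SE 0.28, 95% interval −0.32 to 1.04) did not pass the limma test (adjusted p = 0.385). It turned to −0.22 when each library was rescaled to the same summed FPKM, a scaling that moved the median of all genes to −0.55.

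Cdh3 encodes P-cadherin, a relative of E-cadherin known from basal cells and hair follicle. Its FPKM was 65.5 and 43.0 in 10p-HFSCs, as compared to 28.8 and 22.1 in 48p-HFSCs. Both late passage libraries were below both early ones, with means of 54.2 ± 15.9 and 25.4 ± 4.73 (SD, n = 2 each), 2.13-fold lower in 48p-HFSCs. The log2 difference of −1.04 (SE 0.31, 95% interval −1.81 to −0.28) missed the threshold (limma adjusted p = 0.0656).

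The 2 cadherin genes thus stood in different proportions. The ratio of Cdh1 to Cdh3 FPKM was 1.42 and 1.75 in 10p-HFSCs, as compared to 3.54 and 5.14 in 48p-HFSCs. Cdh1 made up 58.7% and 63.6% of the FPKM summed over both in early passage and 78.0% and 83.7% in late passage libraries. The ratio is the same under any scaling of a whole library. The log2 ratio rose from 0.66 ± 0.21 to 2.09 ± 0.38 in the group means (SD, n = 2 each), a difference of 1.43 without overlap and of 1.17 to 1.70 with any 1 library left out. An exact permutation test of 2 against 2 libraries, two-sided, cannot give a p below 0.333, which is the p obtained.

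The 2 genes lie side by side on chromosome 8 on the forward strand, Cdh3 at 106510891 to 106557297 and Cdh1 at 106603351 to 106670246 (GRCm38). The genes tested within 250 kb of them were Zfp90, Tango6 and Chtf8, all lower in both 48p-HFSC libraries, as were 34.3% of all genes tested. Zfp90 was at 5.49 and 6.04 FPKM in 10p-HFSCs, as compared to 2.31 and 0.56 in 48p-HFSCs and was called lower (log2 difference −1.57, limma adjusted p = 0.0443). Tango6 and Chtf8 had log2 differences of −0.40 and −1.24 (limma adjusted p = 0.330 and 0.0568). The 565 tested genes of chromosome 8 had a median difference of −0.61, as compared to −0.03 over the 10617 genes with a position, and its part in the lower Cdh3 value was not tested. Cdh1, with a difference above 0, went against the median of its chromosome.

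Ctnna1 encodes alpha-E-catenin, which links the cadherin complex to actin. Its FPKM was 105 and 86.4 in 10p-HFSCs, as compared to 115.2 and 105 in 48p-HFSCs, so the groups overlapped. The log2 difference of 0.21 (SE 0.28, limma adjusted p = 0.620) fell to −0.12 under quantile normalization and to −0.37 under the common summed FPKM. Lrrtm2 lies in Ctnna1 on the other strand and was at or below 0.0216 FPKM in every library.

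Ctnnd1 encodes p120-catenin, which binds the cadherin tail and keeps cadherins at the cell surface. Its FPKM was 100.2 and 68.9 in 10p-HFSCs, as compared to 58.2 and 45.8 in 48p-HFSCs. The late passage libraries were below the early ones without overlap, with means of 84.5 ± 22.1 and 52.0 ± 8.77 (SD, n = 2 each). The log2 difference was −0.68 (SE 0.31, limma adjusted p = 0.17). The annotated gene Gm28635 overlaps Ctnnd1 on the same strand and has no value of its own here, so its part in the Ctnnd1 value was not tested.

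Cldn4 encodes claudin-4, a strand protein of epithelial barriers. Its FPKM was 62.9 and 63.0 in 10p-HFSCs, as compared to 191 and 374 in 48p-HFSCs. The early passage libraries were nearly equal. In FPKM the gap between the late ones was larger than that between the lower of them and the early ones. On the log2 scale of the test it was the smaller of these gaps, with a 1.95-fold ratio between the late libraries. The means were 62.9 ± 0.087 and 283 ± 129 (SD, n = 2 each), 4.49-fold higher in 48p-HFSCs, with a log2 difference of 2.07 (SE 0.39, 95% interval 1.11 to 3.04, limma adjusted p = 0.0184). The difference was 2.55 without 48p-HFSC replicate 1 and 1.59 without replicate 2. The call was lost without 10p-HFSC replicate 1 (limma adjusted p = 0.279) and without 10p-HFSC replicate 2 (0.251), fits in which the lone library is assumed to vary like those of the other group. Over all genes these fits called 35 and 36 higher and 140 and 146 lower.

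Cldn1 encodes claudin-1, which the epidermal water barrier needs. Its FPKM was 0 in each 10p-HFSC library, and 0.0388 and 0 in 48p-HFSCs, and so was not tested. Cldn7, another claudin of simple epithelia, was listed at 0 in all 4 libraries. All 72 ribosomal protein genes named Rpl or Rps were above 0 in every library.

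The promoters of these claudins are shown because Cldn4 was the highest of the 10 genes in 48p-HFSCs while Cldn1 was at or near 0 and Cldn7 was listed at 0. The 250 bases before each transcript start are from RefSeq (GRCm38.p6) and are written 5′ to 3′ on the gene's strand, with matches in capitals to CACCTG, an E-box that Snail and Zeb repressors are known to bind, or to the GC box GGGCGG, on either strand. Cldn4 is at chr5:134946935-134947184, minus strand, Cldn1 at chr16:26371840-26372089, minus strand, and Cldn7 at chr11:69964529-69964778, plus strand.
Cldn4: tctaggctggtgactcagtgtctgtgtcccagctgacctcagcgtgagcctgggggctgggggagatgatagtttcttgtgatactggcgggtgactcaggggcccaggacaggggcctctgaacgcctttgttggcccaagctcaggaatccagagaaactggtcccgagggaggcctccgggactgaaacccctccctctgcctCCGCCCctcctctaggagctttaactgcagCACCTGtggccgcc
Cldn1: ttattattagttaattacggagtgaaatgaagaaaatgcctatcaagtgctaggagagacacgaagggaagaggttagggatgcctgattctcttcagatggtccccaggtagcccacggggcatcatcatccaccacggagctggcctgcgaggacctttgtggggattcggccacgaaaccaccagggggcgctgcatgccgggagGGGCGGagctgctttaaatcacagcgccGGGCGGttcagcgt
Cldn7: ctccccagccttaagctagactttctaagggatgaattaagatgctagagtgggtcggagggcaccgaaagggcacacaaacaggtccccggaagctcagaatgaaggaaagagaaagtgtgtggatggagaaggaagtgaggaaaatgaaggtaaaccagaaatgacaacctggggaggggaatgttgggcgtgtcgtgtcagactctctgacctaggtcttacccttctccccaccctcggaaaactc
Over the 300 bases from 250 before to 50 after each start, which run past the stretches shown, Cldn4 held 2 GC boxes and 2 E-boxes and Cldn1 held 2 GC boxes. Cldn7 has 2 annotated starts, and the window shown held neither, while that of the other start held 2 E-boxes and 1 GC box. In windows of the same length, CACCTG occurred on either strand in 20.2% of 32851 mouse promoter windows and GGGCGG in 35.7%. ACCGGT, which is its own reverse complement, was in 2.33% of the windows and in no window of the 7 junction genes with an entry. The 3 motifs share no letters in a match shown here, and a match is a description only.

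Ocln encodes occludin, which spans the membrane at tight junctions. Its FPKM was 13.5 and 7.95 in 10p-HFSCs, as compared to 8.74 and 6.83 in 48p-HFSCs. The groups overlapped, and the log2 difference was −0.38 (SE 0.34, limma adjusted p = 0.446).

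Tjp1 encodes ZO-1, the scaffold that joins claudins and occludin to actin. Its FPKM was 32.2 and 16.0 in 10p-HFSCs, as compared to 15.1 and 10.2 in 48p-HFSCs. The late passage libraries were below the early ones by a margin smaller than the gap between the early libraries. The means were 24.1 ± 11.5 and 12.7 ± 3.48 (SD, n = 2 each), with a log2 difference of −0.82 (SE 0.40, limma adjusted p = 0.195).

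F11r encodes JAM-A, an immunoglobulin-like adhesion molecule of tight junctions. Its FPKM was 69.9 and 60.4 in 10p-HFSCs, as compared to 108 and 125 in 48p-HFSCs. The late passage libraries were above the early ones without overlap, and the means were 65.1 ± 6.74 and 116 ± 11.9 (SD, n = 2 each), 1.79-fold higher in 48p-HFSCs. The log2 difference of 0.83 (SE 0.27, 95% interval 0.17 to 1.49) missed the adjusted threshold (limma adjusted p = 0.0808).

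Transcript length moved with these values in part. Tjp1, Ctnnd1, Cdh3 and Ocln, with annotated transcripts of 7049, 6362, 4384 and 4052 bases, had differences below 0. F11r and Cldn4, with transcripts of 2518 and 1816 bases, had the highest differences. Ctnna1, with a transcript of 3733 bases, lay between these groups in length and in its difference of 0.21. Cdh1, with a transcript of 4430 bases, had a difference of 0.36. Cdh3 had the lowest difference of the 8 genes, −1.04, though Tjp1 and Ctnnd1 have longer transcripts. Cdh1 and Cdh3 thus did not follow the order of length. After each library was corrected for transcript length and GC content, the difference was −0.52 for Tjp1, −0.40 for Ctnnd1, −0.92 for Cdh3, −0.25 for Ocln, 0.74 for F11r and 1.69 for Cldn4. These 6 kept their sign and moved toward 0, and Cldn4 remained called. Cdh1 and Ctnna1 moved away from 0, to 0.51 and 0.33.

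**Figure D2:**
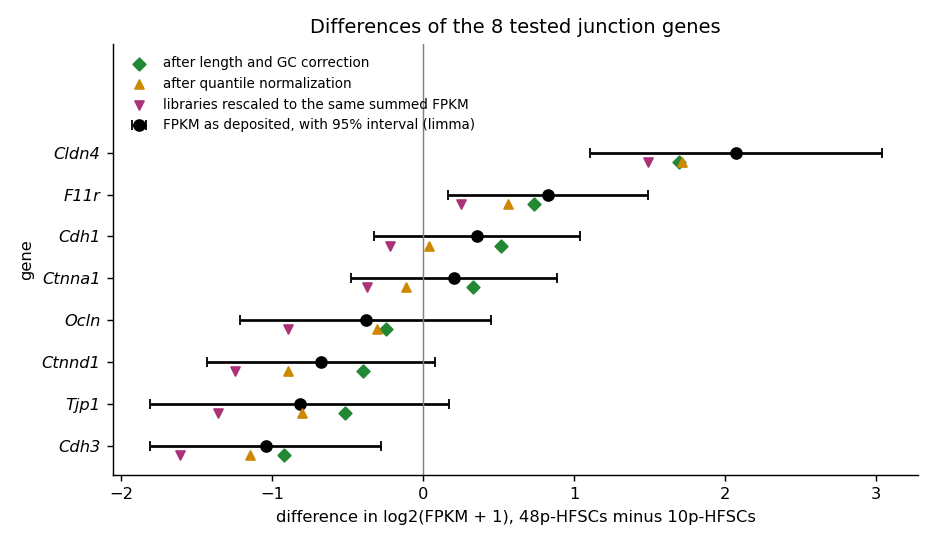
Log2 difference in FPKM + 1 between 48p- and 10p-HFSCs for the 8 tested junction genes, with 95% intervals from limma. Further points give the values after length and GC correction, quantile normalization and rescaling to the common summed FPKM. Cldn4 and F11r lie above 0 and Cdh3, Ctnnd1, Ocln and Tjp1 below 0 in every setting drawn. Cdh1 turns to −0.22 under the common summed FPKM and Ctnna1 to −0.12 and −0.37 under 2 scalings.

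Most of the genes were also set against the relatives that share its role. Cdh3 made up 41.3% and 36.4% of the summed FPKM of type I cadherin genes in early passage libraries and 20.9% and 16.1% in late passage libraries. Ctnnd1 made up 80.4% and 74.3% of the p120 family, and then 59.0% and 51.6%. In both families the late passage libraries were lower without overlap, with differences of the means of −20.3 and −22.1 percentage points.

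Ocln was 71.5% and 65.1% of its family with a MARVEL domain in early passage and 53.1% and 57.6% in late passage libraries. Cldn4 was 75.7% and 75.4% of the summed FPKM of 32 claudin symbols, and then 81.7% and 88.7%. Ctnna1 was 100% of the alpha-catenin genes in all 4 libraries. These shares do not change with the scaling of a library. Apart from Ctnna1, which was not tested, each exact permutation p was 0.333, the smallest that 2 against 2 allows.

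**Figure D3:**
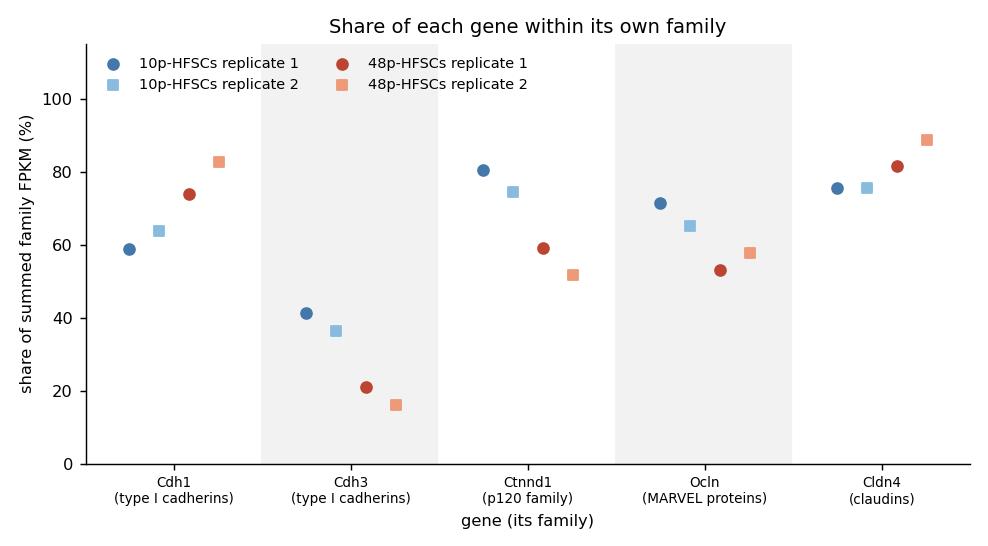
Share in percent of each gene in the summed FPKM of its family, with one point per library. The shares of Cdh3, Ctnnd1 and Ocln are lower in both 48p-HFSC libraries and those of Cdh1 and Cldn4 are higher.

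The other claudins were few. Of 32 claudin symbols, 15 were listed at 0 in all libraries and 13 were above 0 but under an FPKM of 1 in each, and 4 reached 1. Cldn9 was at 0.355 and 0.495 FPKM in 10p-HFSCs, as compared to 27.2 and 17.3 in 48p-HFSCs, and was called higher (log2 difference 4.0, SE 0.32, limma adjusted p = 0.00124). Cldn12 was at 18.2 and 17.2, and then at 11.2 and 29.2, with the late passage libraries on both sides of the early ones. Cldn23 was under 1 in all but 48p-HFSC replicate 1, where it was 3.04.

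Among 25 other adherens junction genes, 17 were tested, and 6 were called higher in 48p-HFSCs, 0 lower and 11 not, beside the 10.8% and 9.15% of all genes. Their median difference was 0.84, and 0.26 under the common summed FPKM, against −0.03 and −0.55 over all genes. Both late passage libraries were above both early ones for 13 of the 17, beside 31.7% of all genes. Of the 6 called, Cdh13 and Cdh15 were under an FPKM of 1 in both 10p-HFSC libraries and entered the test only through 48p-HFSCs. Their direction was thus fixed by the filter, as for any such gene among all genes tested. No call was left without 10p-HFSC replicate 1 or without 10p-HFSC replicate 2.

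Adhesion receptors were 4 of the 6 called higher. Cdh13, T-cadherin, which lacks a cytoplasmic tail, was at 0.141 and 0.229 FPKM in 10p-HFSCs, as compared to 17.5 and 7.37 in 48p-HFSCs (log2 difference 3.39, limma adjusted p = 0.00442). The muscle cadherin gene Cdh15 was at 0.037 and 0, and then at 7.15 and 1.43 (2.13, limma adjusted p = 0.0467). The nectin genes Nectin4 and Nectin1, immunoglobulin-like receptors that join cadherin contacts, differed by 2.40 and 1.48 (limma adjusted p = 0.00309 and 0.0126). Nectin4 was at 2.97 and 2.66 FPKM, and then at 18.1 and 20.1. Nectin1 was at 15.5 and 17.7, and then at 51.8 and 44.6. Arvcf, a relative of p120-catenin, and Shroom3, which drives apical constriction, differed by 1.16 and 1.01 (limma adjusted p = 0.0267 and 0.0492). Nectin1, Nectin4, Arvcf and Shroom3 were not called under the common summed FPKM.

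The catenins and actin linkers of highest level were not called. Ctnnb1, beta-catenin, was at 195 and 159 FPKM in 10p-HFSCs, as compared to 168 and 135 in 48p-HFSCs, with overlapping groups (log2 difference −0.22, limma adjusted p = 0.641). Jup, plakoglobin, which serves both adherens junctions and desmosomes, was at 85.7 and 72.2, and then at 142 and 172 (0.98, limma adjusted p = 0.0614). Actn4, an actin crosslinker, was at 90.1 and 66.3, and then at 117 and 147 (0.76, limma adjusted p = 0.133).

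Of 47 other tight junction genes, 46 were in the tables and 19 were tested, and 3 were called higher, 2 lower and 14 not, beside 10.8% higher and 9.15% lower over all genes. The median difference was 0.03, and −0.49 under the common summed FPKM. Besides Cldn9, the genes called higher were Prkcz, an atypical protein kinase C of cell polarity (log2 difference 2.38, limma adjusted p = 0.00685), and Cgn, cingulin (1.14, 0.0326). Cldn9 was under an FPKM of 1 in both 10p-HFSC libraries and entered the test only through 48p-HFSCs, so its direction was fixed by the filter. Prkcz was at 2.23 and 3.47 FPKM, and then at 15.3 and 22.9. Cgn was at 9.44 and 8.14, and then at 18.7 and 22.4, and Cgn, Prkcz and Cxadr were not called under the common summed FPKM. As for adherens junction genes, no call was left without either of the 10p-HFSC libraries.

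The 2 tight junction genes called lower were Magi3, a scaffold, and Cxadr, an immunoglobulin-like adhesion receptor. Magi3 was at 13.9 and 10.95 FPKM in 10p-HFSCs, as compared to 1.30 and 0.329 in 48p-HFSCs (log2 difference −2.93, limma adjusted p = 0.0043). Cxadr was at 32.5 and 24.4, and then at 11.4 and 9.62 (−1.34, limma adjusted p = 0.0235). Epcam, an adhesion molecule that binds claudins, Lsr, of tricellular junctions, and Crb3, of the Crumbs polarity complex, were the 3 highest of the list and were not called. Epcam was at 338 and 288, and then at 150 and 238 (−0.72, limma adjusted p = 0.221). Under the common summed FPKM, where the median of all genes was −0.55, Epcam was called lower (−1.30, limma adjusted p = 0.0115). Quantile normalization also called Epcam lower. Lsr was at 62.7 and 59.3, and then at 61.3 and 93.6 (0.31, limma adjusted p = 0.493). Crb3 was at 14.5 and 21.8, and then at 23.7 and 51.4 (0.94, limma adjusted p = 0.169).

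**Figure D4:**
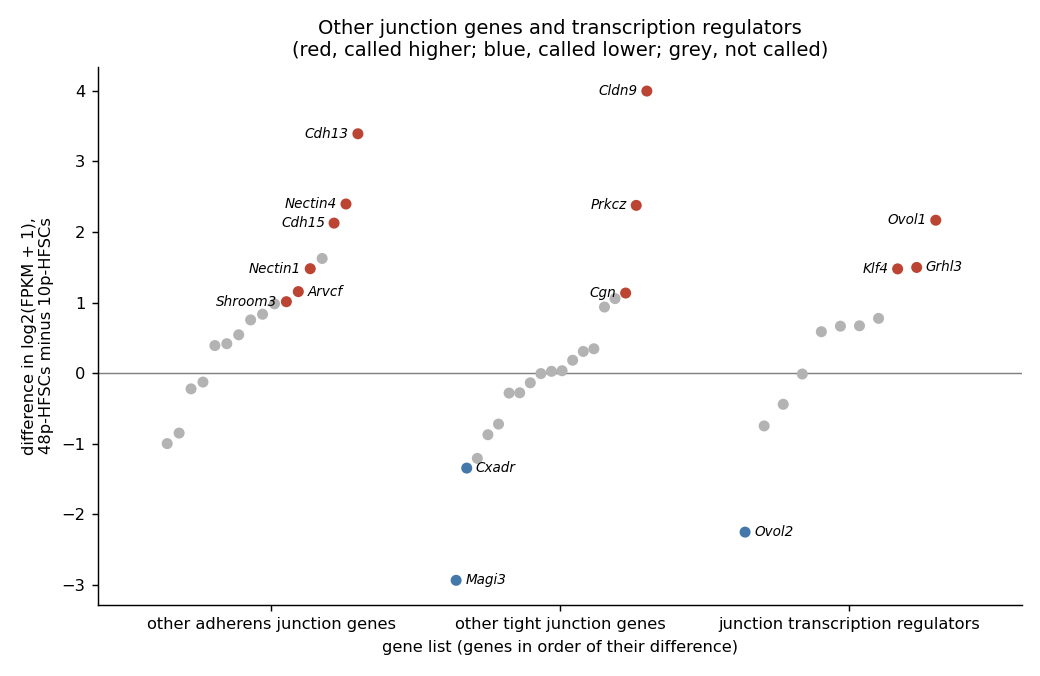
Log2 difference in FPKM + 1 between 48p- and 10p-HFSCs for the tested genes of the 3 other lists, with called genes named in color and the rest in grey. Called genes are 6 higher among 17 adherens junction genes, 3 higher and 2 lower among 19 tight junction genes, and 3 higher and 1 lower among 11 transcription regulators, a picture in which most of the higher calls are lost under the common summed FPKM.

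Of 16 genes for transcription factors known to act on junction genes, 11 were tested, and 3 were called higher, 1 lower and 7 not, beside the same shares of all genes, 10.8% and 9.15%. Ovol1, Grhl3 and Klf4, factors of epithelial differentiation, were the 3 called higher. Ovol1 was at 0.997 and 0.835 FPKM in 10p-HFSCs, as compared to 8.31 and 6.95 in 48p-HFSCs (log2 difference 2.17, limma adjusted p = 0.00425). Grhl3 and Klf4 differed by 1.5 and 1.48 (limma adjusted p = 0.0219 and 0.0314), and all 3 calls were lost under the common summed FPKM, with differences of 1.81 for Ovol1, 1.17 for Grhl3 and 0.97 for Klf4 there. Ovol2, a paralog of Ovol1, went the other way, from 4.01 and 4.45 to 0 and 0.207 (−2.25, limma adjusted p = 0.00307). Ovol1 entered the test only through 48p-HFSCs and Ovol2 only through 10p-HFSCs, so the direction of each was fixed by the filter. None of the 4 was called without either of the 10p-HFSC libraries.

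Snai2, Slug, a repressor of Cdh1, was at 100.8 and 111 FPKM in 10p-HFSCs, as compared to 69.9 and 86.4 in 48p-HFSCs, lower without overlap but not called (−0.44, limma adjusted p = 0.289). Snai3, another Snail family member, was at 2.47 and 3.05, and then at 4.38 and 5.59, higher without overlap but not called (0.67, limma adjusted p = 0.14). Snai1 was at most 0.151 and Zeb1 at most 0.0087 FPKM, and Zeb2 and Twist1 were listed at 0 in all libraries, while Twist2 was at 0.044 and 0.0615, and then at 3.35 and 0.849. Trp63, the basal epithelial factor p63, and Klf5 were the other highest members of the list, with differences of 0.67 and 0.59 (limma adjusted p = 0.327 and 0.311).

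Among all genes tested, those closest in level over the 4 libraries were sought by Euclidean distance of log2(FPKM + 1). For Cdh1 they were Atp6v1e1 (0.269), Aamp (0.308) and Xlr (0.318), of which Xlr belongs to a family of near copies and its value is uncertain. For Tjp1 they were Polr2a (0.276), Kif20b (0.354) and Sec23b (0.382). Cldn1 was not tested and had no such genes.

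The libraries were unequal. Summed FPKM was 581516 to 719012 in 3 libraries and 1414953 in 48p-HFSC replicate 2, whose relative depth was 46.7% of that of 10p-HFSC replicate 1. The summed FPKM of 5 basal keratinocyte markers was 2799 to 3379 in 10p-HFSCs and 7800 to 12381 in 48p-HFSCs. Of the 5, Itga6 and Itgb4 were called higher. Krt5 and Krt14 had the highest values of the list and were not called (limma adjusted p = 0.181 and 0.282). Of 7 hair follicle bulge markers, 5 were under 1 FPKM in all libraries, among them Cd34, one of the markers of the sort. The list summed to 127 to 182 in 10p-HFSCs and 27.2 to 445 in 48p-HFSCs, with Sox9 called lower. Its member Krt15 was at 425 FPKM in 48p-HFSC replicate 1 and 18.8 in replicate 2. Of 8 fibroblast markers, 7 were under 1 in all libraries and Dcn, Lum and Thy1 were at 0, and the list summed to 60.2 to 68.9 in 10p-HFSCs and 0.185 to 0.242 in 48p-HFSCs, with Col1a2 called lower. The 5 leukocyte markers summed to 6.83 to 7.32 and 53.3 to 78.8, nearly all from Cd68, which was called higher, with Ptprc at most 0.071, Adgre1 at most 0.0194 and Cd3e and Tyrobp at 0. The 4 Merkel cell markers summed to 21.8 to 22.5 and 5.05 to 7.19, with Sox2 called lower and Atoh1 at 0. The 6 melanocyte markers summed to 0.699 to 0.829 and 2.36 to 11, with Dct and Sox10 at 0, and the 5 endothelial markers to 2.34 to 2.61 and 0.292 to 1.37. The part of these markers in the junction values was not tested.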

How the data were processed

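RNA was extracted with TRIzol from 10p- and 48p-HFSCs and made into stranded mRNA libraries, which were sequenced as single-end reads. The authors mapped the reads to mouse genome mm10, another name for GRCm38, and deposited one FPKM value per gene symbol and library. Processing notes of the submitters name TopHat2 2.1.1, Bowtie2 2.2.8, SAMtools 0.1.18 and Cuffdiff 2.2.1, and the methods of the study name Cufflinks and other versions. The annotation, the strand setting and the handling of reads with several positions are not given in the sources used here.

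FPKM values are not counts, so a count test was not run. Values were taken to log2(FPKM + 1) and genes below an FPKM of 1 in 3 or more libraries were left out. A gene below 1 in both libraries of a group thus entered only through the other group, and its direction was fixed. This holds for Cdh13, Cdh15, Cldn9, Ovol1, Ovol2, Col1a2 and Sox2 among the called genes named here. The groups were fitted by limma 3.58.1 (R 4.3.3, lmFit and eBayes with a trend), with Benjamini-Hochberg adjustment over 11018 genes. The fit was tested on simulated data. Single ratios and shares were compared by exact permutation. GENCODE release M21 gave gene positions, transcript lengths and GC content, and in it 95.8% of the symbols were found. Groups and replicate numbers are those of the labels.

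Total reads are unknown, so no counting interval is given. The ratio of low FPKM values, which stand for single reads, gave relative depths of 71.6%, 82.9% and 46.7% of that of 10p-HFSC replicate 1 for 10p-HFSC replicate 2 and 48p-HFSC replicates 1 and 2. These depths would also hold any other scaling of the deposited values between libraries.

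Some items are not reported here and were taken out of the lists and counts of named groups. Members and gene lists were chosen with earlier results of these data known. Genes named are the 10 members, in each other list the called genes and the 3 of highest mean FPKM, the 3 tested genes nearest in profile to Cdh1 and Tjp1, and the tested neighbours of Cdh1 and Cdh3. Cldn12, Cldn23, Snai1, Zeb1, Snai3, Zeb2, Twist1, Twist2 and the scaffold genes of the closing section were chosen after their values were seen. The alternatives tried were the pseudocount, the filter, 3 scalings, the variance prior, the fold limit, a block for the replicate number, a length and GC correction, and each library left out. In the median-of-ratios scaling the factors of the deposited values were 0.987 to 1.01, so that setting was bound to change little.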

Additional observations from a re-analysis of the deposited data

How the results depend on the processing

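With 15 alternatives per result, the cause of a change was not tested. Rescaling to the same summed FPKM gave 620 genes higher and 820 lower over all genes, against 1189 and 1008, turned Cdh1 to −0.22 and Ctnna1 to −0.37 (0.32 and 0.17 above the median of all genes), and left 2 adherens, 1 tight and 0 regulator genes called higher. Quantile normalization turned Ctnna1 to −0.12 and called 4 tight junction genes lower. Without a filter 637 genes were lower over all and 1 regulator gene was called higher. The length and GC correction called 2 regulator genes lower. Same-numbered libraries deviated together (correlation 0.408), but nothing says that the numbers pair the samples. With a block for the replicate number, 1613 genes were called higher and 1497 lower (13.6% of those tested), and 1 junction member was called lower, Cdh3 (limma adjusted p = 0.0084). The block together with the length and GC correction called 4 tight junction and 2 regulator genes lower, and Cdh3 was not called. With any 1 library left out, the genes called higher numbered 0 to 1 members, 0 to 7 adherens, 0 to 5 tight and 0 to 4 regulator genes, and those called lower 0 to 1, 0 to 3 and 0 to 1 in the other lists. Over all genes these fits called 35 to 1936 higher and 140 to 1875 lower. Cldn4 was called in 13 of 15 alternatives, with differences of 1.49 to 2.55. Among them, the setting without a fold limit is the main fit under a looser rule and could not lose a call. With 2 libraries a group and unknown read totals, absence of a call for the other members is not evidence of equal levels.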

Other observations

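Large scaffold proteins with PDZ domains hold junction and polarity complexes together. The genes taken here, chosen after the values were seen, have transcripts of 5815 to 7929 bases, beside a median of 3287 over genes tested. Of the 7 genes taken and tested, Tjp1 among them, both 48p-HFSC libraries were below both 10p-HFSC libraries in 6, beside 34.3% of all genes. Of the 7, Magi3 was called lower. Shroom3, which also has a PDZ domain and a transcript of 6765 bases, was not among the 7. It was called higher (log2 difference 1.01, limma adjusted p = 0.0492), so the count does not stand for all such genes. Pard3, a polarity scaffold, was at 28.9 and 21.6 FPKM in 10p-HFSCs, as compared to 13.7 and 7.62 in 48p-HFSCs (log2 difference −1.21, limma adjusted p = 0.0614). Afdn, afadin, which ties nectins to actin, was at 18.7 and 13.6, and then at 7.43 and 7.58 (−1.0, limma adjusted p = 0.0563). Mpdz was at 10.5 and 6.84, and then at 4.88 and 3.59 (−0.87, limma adjusted p = 0.111). Patj differed by −0.28, and Magi1 overlapped between groups, with a difference of 0.03. After each library was corrected for length and GC content, the differences of Pard3, Afdn and Mpdz were −1.02, −0.67 and −0.55. Of the 7 genes, 5 were below 0, while Patj and Magi1 were at 0.02 and 0.35.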
